A study of Mus musculus with 51 samples.

Results

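Gapdh and Pdia3 were printed as control spots on a mouse spotted array, and their log2 ratios are described here over print blocks, arrays and spiked amounts. The members are all spots that the platform lists as Gapdh at block positions 133 and 155 or as Pdia3 at block positions 265 and 287. There were 192 such spots among the 16896 on the array: 96 for Gapdh and 96 for Pdia3, as 1 pair of each gene in every one of the 48 blocks of 352 spots. Another 6 Gapdh spots, all in block 4, lie outside these positions and are treated apart; Pdia3 had 0 other spots.

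The series holds 51 arrays with 2 colours. Both channels of every array held RNA of CRL1606, a hybridoma line made by fusing mouse spleen cells with a mouse myeloma, which secretes an antibody against fibronectin. In all groups but the first, 100 genes were spiked into one channel and another 100 into the other, at 1 amount per gene. The amounts 0, 0.05, 0.1, 0.25, 0.5 and 0.75 pmol had 6 arrays each. The amounts 0.025, 0.15, 0.2, 1 and 2 pmol had 3 arrays each. The titles of all 51 arrays carry the tag self-hybridisation, and below that word is kept for the 0 pmol arrays. All groups thus share 1 cell line, and the same culture method is given for them. The labels give no culture of origin for a replicate. P-values therefore cover the spread among these arrays only, and that spread can be technical. No source used here says whether Gapdh or Pdia3 belonged to a spiked set.

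Gapdh encodes glyceraldehyde-3-phosphate dehydrogenase, the glycolytic enzyme that oxidises glyceraldehyde 3-phosphate while reducing NAD+, and it is widely used as a reference gene. Pdia3 encodes ERp57, a protein disulfide isomerase of the endoplasmic reticulum that helps glycoproteins fold together with calnexin and calreticulin and takes part in loading peptides onto MHC class I molecules. Antibody-secreting cells such as hybridomas carry a large secretory load and use many such folding enzymes. A ratio between channels holds no level per cell, so the labelled cell type could not be checked against the levels of its markers.

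Each value is a deposited log2 ratio minus the median of the array's non-control spots. The value of a gene on an array, called its array value below, is the median over its measured control spots. Which channel is the numerator is not stated, so values are called positive or negative only. The spots of a gene are copies of 1 probe on 1 slide and were not counted as replicates.

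The number of spots with a ratio ran from 8370 to 16862 per array (median 16704). At 1 pmol the 3 arrays had 8370 to 14621, and the other 48 arrays had at least 15327. Outside 1 pmol, 80 to 96 of the 96 Gapdh spots and 81 to 96 of the 96 Pdia3 spots were measured on each array. At 1 pmol, Gapdh had 25, 17 and 25 measured spots in replicates 1, 2 and 3, and Pdia3 had 64, 25 and 41. Values at 1 pmol therefore rest on few spots, and the main results that use them are given with and without those arrays.

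With nothing spiked, the array values of Gapdh were 0.52, 0.62 and 0.89 in replicates 1 to 3 and -1.17, -1.13 and -1.22 in replicates 4 to 6. Those of Pdia3 were -0.42, -0.30 and -0.20 in replicates 1 to 3 and 0.51, 0.70 and 0.68 in replicates 4 to 6. Each gene was thus on one side of the array median in the first 3 self-hybridisations and on the other side in the last 3, and the 2 genes were always on opposite sides. The sign was shared by nearly all spots: 94, 95 and 96 of 96 Gapdh spots were positive in replicates 1 to 3, and 79 of 88, 85 of 92 and 84 of 89 were negative in replicates 4 to 6. The mean of the 6 arrays was -0.25 ± 1.02 (SD) for Gapdh and 0.16 ± 0.52 for Pdia3. Neither mean passed the test against 0 (limma, adjusted p = 0.771 and 0.501; exact sign-flip p = 0.563 and 0.469, two-sided, where 6 arrays allow no less than 0.0313), beside 25.2% of all 7922 features tested that passed. Replicates 1 to 3 and 4 to 6 were also fitted apart, a split made after their signs had been seen, so its tests are no independent support. The Pdia3 mean was -0.31 in the first 3 arrays (limma, adjusted p = 0.440, with 9.04% of features passing) and 0.63 in the last 3 (adjusted p = 0.0229, with 28.7% passing). Gapdh, whose array values lay further from 0 in both parts, did not pass in either fit.

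Across all 51 arrays Gapdh ran from -1.27 to 6.02 with a median of -0.18, and it was above 1 on 9 arrays and below -1 on 7. Pdia3 ran from -0.96 to 1.12 with a median of 0.062, and 50 of the 51 arrays lay within 1 of the array median. Of the 2 control genes, Pdia3 thus stayed nearer the middle of its arrays. Arrays of the same amount had an SD of 1.39 for Gapdh and 0.39 for Pdia3 around their group mean. Among 7920 non-control features, whose median SD was 0.493, these fell at percentiles 99.7 and 18.8. A feature there is the mean of 2 spots and a control value the median of up to 96, so the 2 kinds of value do not share the same spot noise. Both percentiles include the arrays at 1 pmol. Without those arrays the SD was 1.21 for Gapdh and 0.39 for Pdia3, and no percentile was computed.

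**Figure D1:**
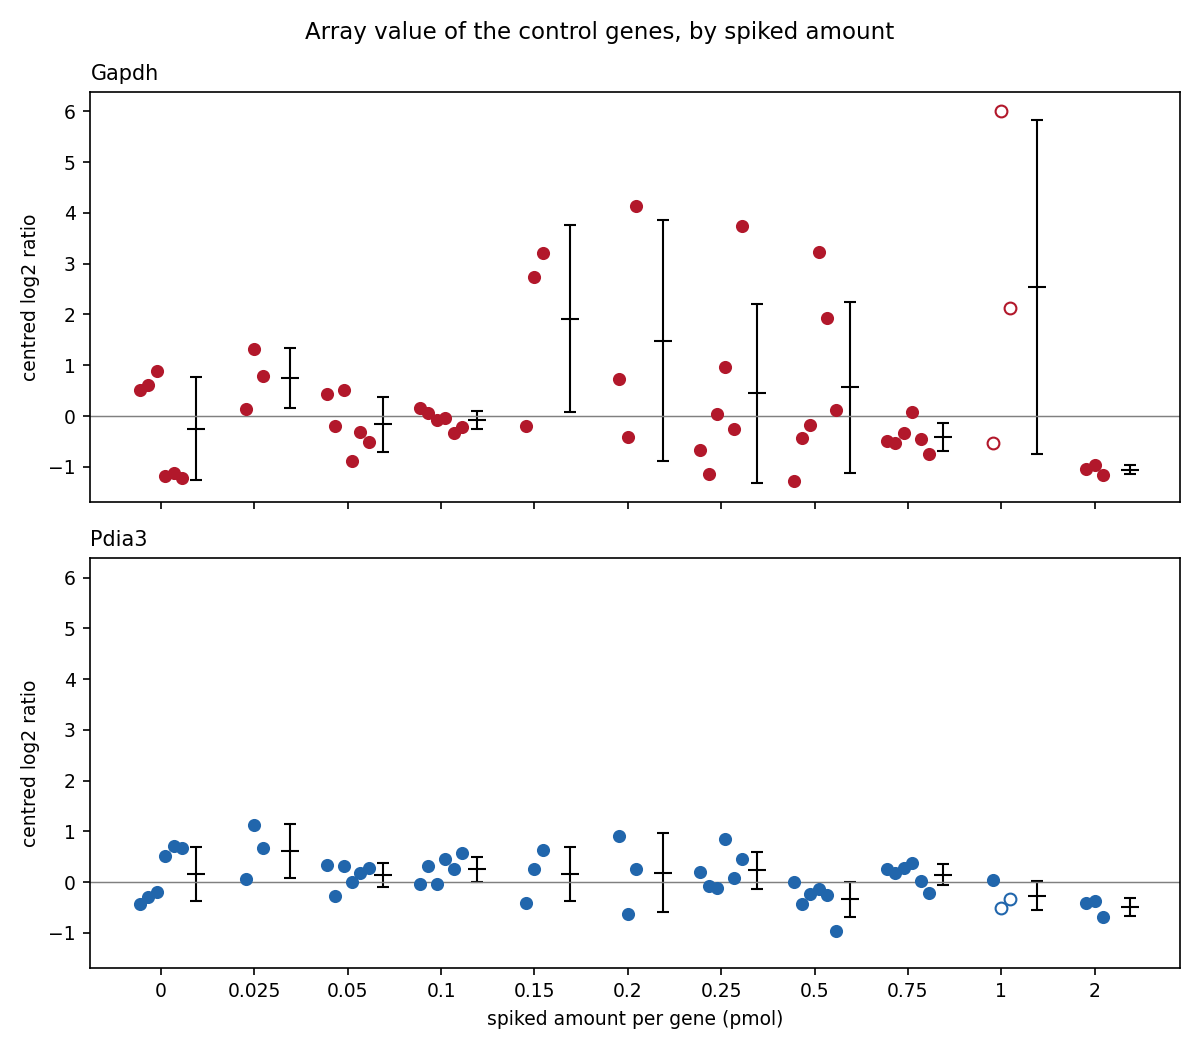
Array value of Gapdh (upper) and Pdia3 (lower) in centred log2 units for each of the 51 arrays, by spiked amount in pmol; open circles mark arrays with under 48 measured spots of that gene, and black bars give the group mean and SD. Gapdh reaches 6.02 and lies above 1 on 9 arrays, whereas Pdia3 keeps within 1 of the median on 50 of 51.

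At the lowest spiked amount, 0.025 pmol, Gapdh was positive on all 3 arrays (0.15, 1.33 and 0.78) and so was Pdia3 (0.06, 1.12 and 0.67). The spots were even over the slide on these arrays, with an SD of Gapdh over blocks of 0.163 to 0.216. At 0.05 pmol Gapdh ran from -0.90 to 0.52 with a median of -0.26, and Pdia3 from -0.27 to 0.34 with a median of 0.23. At 0.1 pmol Gapdh ran from -0.34 to 0.15 with a median of -0.06, the narrowest range of Gapdh in any group of 6, and Pdia3 from -0.05 to 0.57 with a median of 0.29. In all 3 groups, as at every higher amount, the range of each gene overlapped its own range at 0 pmol. No Gapdh array at 0 pmol lay between -1.13 and 0.52, and all Gapdh arrays at 0.1 and 0.75 pmol lay inside that gap.

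Between 0.15 and 0.5 pmol, 1 or 2 arrays of each amount stood far above the others in Gapdh. At 0.15 pmol the array values were -0.20, 2.75 and 3.20, and at 0.2 pmol they were 0.74, -0.42 and 4.14. At 0.25 pmol Gapdh ran from -1.15 to 3.74 with a median of -0.10, and at 0.5 pmol from -1.27 to 3.24 with a median of -0.03. The high values were replicates 2 and 3 at 0.15 pmol, replicate 3 at 0.2 pmol, replicate 6 at 0.25 pmol and replicates 4 and 5 (3.24 and 1.94) at 0.5 pmol. On these 6 arrays every measured Gapdh spot was positive except 1 of 92 on replicate 3 at 0.15 pmol, and Gapdh lay at percentiles 98.3 to 99.0 of the features of its own array. On replicate 3 at 0.2 pmol the lowest of 96 Gapdh spots was 3.13 and the highest 6.36, so the departure covered the whole slide.

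Pdia3 did not share these departures. On the same arrays at 0.15 pmol its values were 0.26 and 0.62, after -0.42 in replicate 1, and on replicate 3 at 0.2 pmol it was 0.26, after 0.92 and -0.63. At 0.25 pmol Pdia3 ran from -0.11 to 0.86 with a median of 0.14, and replicate 6, where Gapdh was 3.74, had 0.45. At 0.5 pmol it ran from -0.96 to 0.01 with a median of -0.25, and replicate 4, where Gapdh was 3.24, had -0.14. Its highest value among the 6 arrays with high Gapdh was thus 0.62.

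At 0.75 pmol Gapdh ran from -0.76 to 0.07 with a median of -0.48, and Pdia3 from -0.21 to 0.38 with a median of 0.22. At 1 pmol Gapdh had -0.53, 6.02 and 2.13, and Pdia3 had 0.05, -0.51 and -0.34. At 2 pmol Gapdh had -1.05, -0.97 and -1.15, and Pdia3 had -0.42, -0.37 and -0.69. The 3 arrays at 2 pmol were the one group of Gapdh in which all arrays lay within 0.2 of each other, and both genes were negative on all 3.

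Ordered by group mean, Gapdh was highest at 1 pmol (2.54 ± 3.29, SD, n = 3), followed by 0.15 pmol (1.92 ± 1.84), 0.2 pmol (1.48 ± 2.37) and 0.025 pmol (0.75 ± 0.59), all with 3 arrays. The next were 0.5 pmol (0.57 ± 1.68), 0.25 pmol (0.44 ± 1.76), 0.1 pmol (-0.081 ± 0.18), 0.05 pmol (-0.16 ± 0.54), the self-hybridisations (-0.25 ± 1.02) and 0.75 pmol (-0.42 ± 0.28), all with 6 arrays, and the lowest was 2 pmol (-1.06 ± 0.092, n = 3). This order does not follow the amount. Pdia3 was highest at 0.025 pmol (0.62 ± 0.53, n = 3), and 7 groups followed between 0.25 and 0.14, namely 0.1 pmol (0.25 ± 0.25), 0.25 pmol (0.23 ± 0.37), 0.2 pmol (0.18 ± 0.78), the self-hybridisations (0.16 ± 0.52), 0.15 pmol (0.15 ± 0.53), 0.75 pmol (0.15 ± 0.21) and 0.05 pmol (0.14 ± 0.24). The 3 groups with a negative Pdia3 mean were 1 pmol (-0.26 ± 0.29), 0.5 pmol (-0.34 ± 0.34) and 2 pmol (-0.49 ± 0.18). Of the 20 neighbouring pairs of groups in these orders, 19 overlapped in range. The exception was Gapdh at 0.75 against 2 pmol (exact permutation p = 0.0238, and 0.476 adjusted over the 20 pairs).

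Each amount was then set against the 6 arrays at 0 pmol, which the 10 comparisons share. Gapdh passed limma's test at 1 pmol and Pdia3 at no amount, so 1 of 20 differences passed. Of all features, 4.98% passed at 0.025 pmol, 4.15% passed at 0.05 pmol, 6.26% passed at 0.1 pmol, 10.7% passed at 0.15 pmol and 8.89% passed at 0.2 pmol. At the higher amounts 13% (0.25 pmol), 25.1% (0.5 pmol), 7.49% (0.75 pmol), 42.5% (1 pmol) and 15.6% (2 pmol) of features passed. The Gapdh difference at 1 pmol was 2.79 ± 0.92 (SE; limma, adjusted p = 0.0130; exact permutation p = 0.0476, and 0.397 adjusted over the 20 differences). It rested on replicate 2, with 17 measured spots: without that array the difference was 1.05 (adjusted p = 0.402), and without replicate 1 of 1 pmol it was 4.32 (adjusted p = 0.000352). The call was also lost when each print block was centred on its own median (2.26, adjusted p = 0.0513) and when arrays were scaled to one spread (1.19, adjusted p = 0.389).

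The next largest Gapdh difference, 2.17 ± 0.92 at 0.15 pmol, did not pass (limma, adjusted p = 0.124; exact permutation p = 0.0595). Without replicate 1 of 0.15 pmol it was 3.22 (adjusted p = 0.0411). For Pdia3 the differences furthest from 0 were -0.65 ± 0.28 at 2 pmol (adjusted p = 0.115; exact permutation p = 0.0595) and -0.50 ± 0.23 at 0.5 pmol (adjusted p = 0.108; exact permutation p = 0.0974). The second of these was positive, 1.53, when arrays were not centred. With 3 arrays against 6 the exact test cannot go below 0.0119, and with 6 against 6 not below 0.00216.

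The precision of these comparisons differed between the genes. At 0.1 pmol the Gapdh difference was 0.17, with limma's 95% interval from -1.35 to 1.68, whereas the Pdia3 difference was 0.092, with an interval from -0.37 to 0.56. At 0.75 pmol the intervals ran from -1.69 to 1.35 for Gapdh and from -0.48 to 0.45 for Pdia3. A difference of 1 log2 unit thus lay inside the Gapdh interval and outside the Pdia3 interval in both.

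The comparisons with 0 pmol were also fitted within the same split of the replicates. The spiked arrays differed between the parts of the split, as the 0 pmol arrays did. Gapdh at 0.25 pmol was -0.68, -1.15 and 0.04 in replicates 1 to 3 and 0.96, -0.25 and 3.74 in replicates 4 to 6. At 0.5 pmol it was -1.27, -0.44 and -0.18, then 3.24, 1.94 and 0.12. The share of the 0 pmol arrays and of the spiked arrays in these differences was not tested. Against 0 pmol within replicates 1 to 3, Gapdh differed by -1.27 at 0.25 pmol and by -1.30 at 0.5 pmol (limma, adjusted p = 0.537 and 0.475, with 8.68% and 12.2% of features passing). Within replicates 4 to 6 the differences were 2.65 and 2.94 (adjusted p = 0.0227 and 0.00955, with 17.3% and 23.5% passing), so Gapdh differed in opposite directions in the 2 fits. Pdia3 at 0.5 pmol differed by 0.089 within replicates 1 to 3 (adjusted p = 0.906) and by -1.09 within replicates 4 to 6 (adjusted p = 0.00940). The split followed the values, its own difference was not tested, and the labels do not call replicates 1 to 3 or 4 to 6 a batch.

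Over the 45 spiked arrays Pdia3 fell by 0.12 ± 0.034 (SE) per doubling of the amount (limma, adjusted p = 0.00722), beside 23.2% of all features whose slope passed. Its group means did not fall steadily. They were 0.62 at 0.025 pmol, 0.14 at 0.05 pmol and 0.15 at 0.75 pmol, and negative at 0.5, 1 and 2 pmol. Pearson's r with log2 amount was -0.50 and Spearman's rho -0.48 (permutation p = 0.00049 and 0.00096, or 0.00098 and 0.00144 adjusted over 6 relations). The amounts furthest from the median were those of the 3 arrays at 0.025 pmol, and without them r was -0.43 (permutation p = 0.00511). Without the 3 arrays at 1 pmol r was -0.47 (permutation p = 0.00148). The slope of Gapdh, -0.023 ± 0.129, did not pass (adjusted p = 0.917). No correlation with the amount is given for Gapdh, whose array values fall into separate clusters.

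The arrays also fell into sets on their other features. Ward clustering of the 51 arrays on 3590 non-control features, cut at 6 sets, put all 6 arrays at 0 pmol in one set and 1 array, replicate 2 at 1 pmol, in a set of its own. A set of 7 arrays held 6 of the 9 with Gapdh above 1: replicates 2 and 3 at 0.15, replicate 3 at 0.2, replicate 6 at 0.25 and replicates 4 to 6 at 0.5 pmol. Gapdh there ran from 0.12 to 4.14 with a median of 3.20, and in the set of 15 arrays it ran from -1.27 to 0.07. Pdia3 in the same set of 7 ran from -0.96 to 0.62, overlapping every other set. The labels name no batch that these sets could be compared with.

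Within the sets of 14, 15, 7 and 8 arrays, r of Pdia3 with log2 amount was -0.23, -0.26, -0.81 and -0.51. All 4 were negative, and none passed after adjustment over the 24 relations computed within sets (permutation p adjusted to 0.724, 0.644, 0.114 and 0.442; exact for the sets of 7 and 8). With the set as a term in limma's fit the slope was -0.088 (adjusted p = 0.284), and without centring it was -0.046 (adjusted p = 0.830). The slope thus kept its sign in these fits and did not pass in them, and the part of the array set in it was not tested.

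Compared on the same array, Pdia3 was above Gapdh on 26 arrays and below it on 25, by between -6.52 and 1.89. Without 1 pmol it was above on 25 and below on 23, by between -3.87 and 1.89. The mean of Pdia3 minus Gapdh was -0.26, beside a median of 0.048, and did not pass (two-sided sign-flip permutation p = 0.252 over 51 arrays). The 2 genes had opposite signs on 27 arrays and the same sign on 24. Without 1 pmol these counts were 24 and 24.

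Each of the 48 blocks gave its own reading of the 2 genes through its pair of spots. Leaving out 1 pmol, the typical SD within a pair was 0.429 for Gapdh and 0.259 for Pdia3, and the typical SD over the blocks of 1 array was 0.544 and 0.291 (medians over 48 arrays). The SD between arrays of 1 amount was 1.21 for Gapdh and 0.392 for Pdia3. In these pooled figures the SD within a pair was the smallest and the SD between arrays the largest. These SDs are of single spots, of pair means and of array values in turn. The SD over blocks therefore also holds part of the spread within pairs, and the order does not rank separate sources of variation. Each of these 3 pooled spreads was larger for Gapdh. Single amounts did not all keep this order. At 0.75 pmol the SD between arrays was 0.278 for Gapdh and 0.211 for Pdia3, under mean SDs over blocks of 0.834 and 0.441. At 0.15 pmol it was 1.84 and 0.529, above 0.521 and 0.406. At 0.05 pmol the mean SD within a pair, 0.660 and 0.430, exceeded that over blocks, 0.566 and 0.367. Among all 51 arrays, at least 90% of the measured spots had the same sign on 21 arrays for Gapdh and on 25 for Pdia3, and every measured spot did on 11 and 4.

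**Figure D2:**
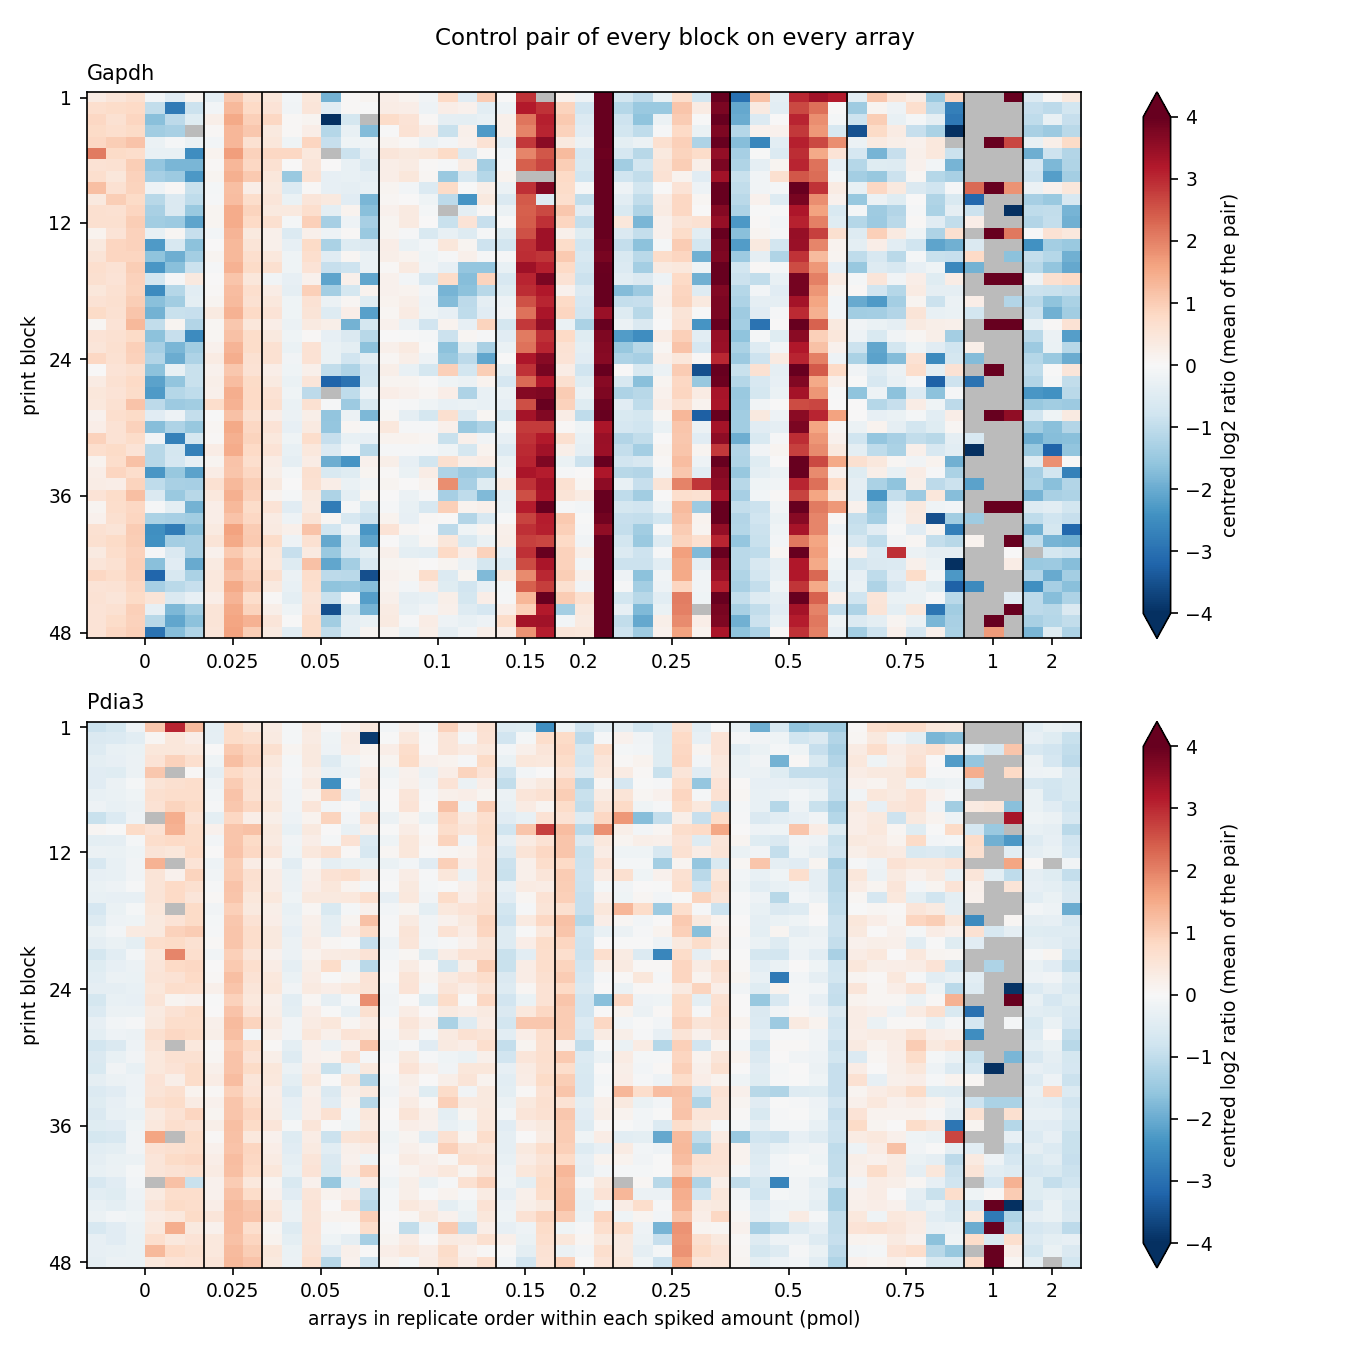
Mean centred log2 ratio of the control pair in each of the 48 print blocks (rows) on each of the 51 arrays (columns, ordered by amount and then replicate); the colour scale ends at -4 and 4, and grey marks a pair with no measured spot. The 6 arrays with high Gapdh at 0.15 to 0.5 pmol are red in their measured blocks, except block 10 on replicate 3 at 0.15 pmol (-0.52). Replicates 2 and 3 at 0.15 pmol had 47 and 46 measured Gapdh blocks. Grey fills much of the 1 pmol columns, where 17 to 25 Gapdh spots were measured.

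On single arrays the SD over blocks ran from 0.131 (replicate 2 at 0 pmol) to 3.22 (replicate 3 at 1 pmol) for Gapdh, and from 0.117 (replicate 1 at 0.1 pmol) to 3.53 (replicate 2 at 1 pmol) for Pdia3. With nothing spiked, the SD of Gapdh was 0.331, 0.131 and 0.150 in replicates 1 to 3 and 0.834, 0.745 and 0.672 in replicates 4 to 6. Replicates 4 to 6 were thus less even over the slide as well as opposite in sign. For Pdia3 the same arrays had 0.183, 0.142 and 0.180, then 0.278, 0.492 and 0.309. Replicates 1 to 3 were also lower in Gapdh than replicates 4 to 6, with no overlap, at 0.05 pmol (0.188 to 0.340 against 0.658 to 1.04) and at 0.1 pmol (0.152 to 0.320 against 0.649 to 0.828). At 0.25, 0.5 and 0.75 pmol they overlapped, with 0.375 to 0.460 against 0.424 to 1.06, 0.288 to 0.694 against 0.488 to 0.726, and 0.704 to 0.912 against 0.467 to 1.24.

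Averaged by amount, the SD of Gapdh over blocks was lowest at 0.025 pmol (0.193 ± 0.027, SD, n = 3) and 0.477 ± 0.312 (n = 6) in the self-hybridisations. Between 0.05 and 0.5 pmol the 6 group means lay close together, from 0.505 ± 0.295 (n = 6, 0.1 pmol) to 0.566 ± 0.338 (n = 6, 0.05 pmol). They were higher at the top amounts, with 0.834 ± 0.261 (n = 6) for 0.75 pmol, 2.20 ± 0.891 (n = 3) for 1 pmol and 0.789 ± 0.194 (n = 3) for 2 pmol. The range of every group except 1 pmol overlapped the range of the 0 pmol arrays. The Pdia3 means lay between 0.199 ± 0.057 at 0.025 pmol and 0.508 ± 0.150 at 0.25 pmol, apart from 2.10 ± 1.29 at 1 pmol, and at 2 pmol the mean was 0.239 ± 0.057.

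Over the 45 spiked arrays the spread of Gapdh over blocks rose with log2 amount (r = 0.47 and rho = 0.56, permutation p = 0.00044 and 0.00012; 0.00098 and 0.00072 adjusted over 6 relations). Without the 3 arrays at 1 pmol r was 0.45 (permutation p = 0.00265), and without the 3 at 0.025 pmol it was 0.41 (p = 0.00394). Within the set of 14 arrays r was 0.64 and rho 0.76 (permutation p = 0.0193 for both, adjusted over 24). In the sets of 15 and 7 arrays r was -0.051 and -0.12 (permutation p adjusted to 0.892 for both). In the set of 8 arrays r was 0.22 and rho 0.44 (exact permutation p adjusted to 0.786 and 0.531), with a slope of 0.192 per doubling against 0.139 over all 45 arrays. The relation passed within 1 of the 4 sets, and sets of 7 and 8 arrays leave wide room for relations that did not pass.

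For Pdia3 the spread also rose with log2 amount over all 45 arrays (r = 0.30 and rho = 0.35, permutation p = 0.0364 and 0.0184; 0.0364 and 0.0221 adjusted over 6), and without 1 pmol, where 25 to 64 Pdia3 spots were measured, r was 0.14 (permutation p = 0.384). Without the 3 arrays at 0.025 pmol r was 0.27 (permutation p = 0.0785), so the pooled call was lost without either amount. Within the set of 14 arrays, which holds none of 1 pmol, r was 0.67 and rho 0.74 (permutation p = 0.0193 for both, adjusted over 24). In the sets of 15, 7 and 8 arrays r was negative, with -0.17, -0.73 and -0.25 (permutation p adjusted to 0.758, 0.220 and 0.758; exact for the sets of 7 and 8). Leaving out any 1 of the 1 pmol arrays gave 0.26 to 0.28, and leaving out replicate 2 at 0.025 pmol or replicate 1 or 3 at 0.05 pmol gave 0.29; none of these 6 values passed (permutation p from 0.0502 to 0.0880). On the same array, the SD over blocks was lower for Pdia3 than for Gapdh on 42 of 51 arrays, by 0.20 on average (sign-flip permutation p = 0.0003), with -0.21 without 1 pmol. The difference was -0.096 and did not pass (permutation p = 0.506) when ratios at the upper limit of the file were kept as values.

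**Figure D3:**
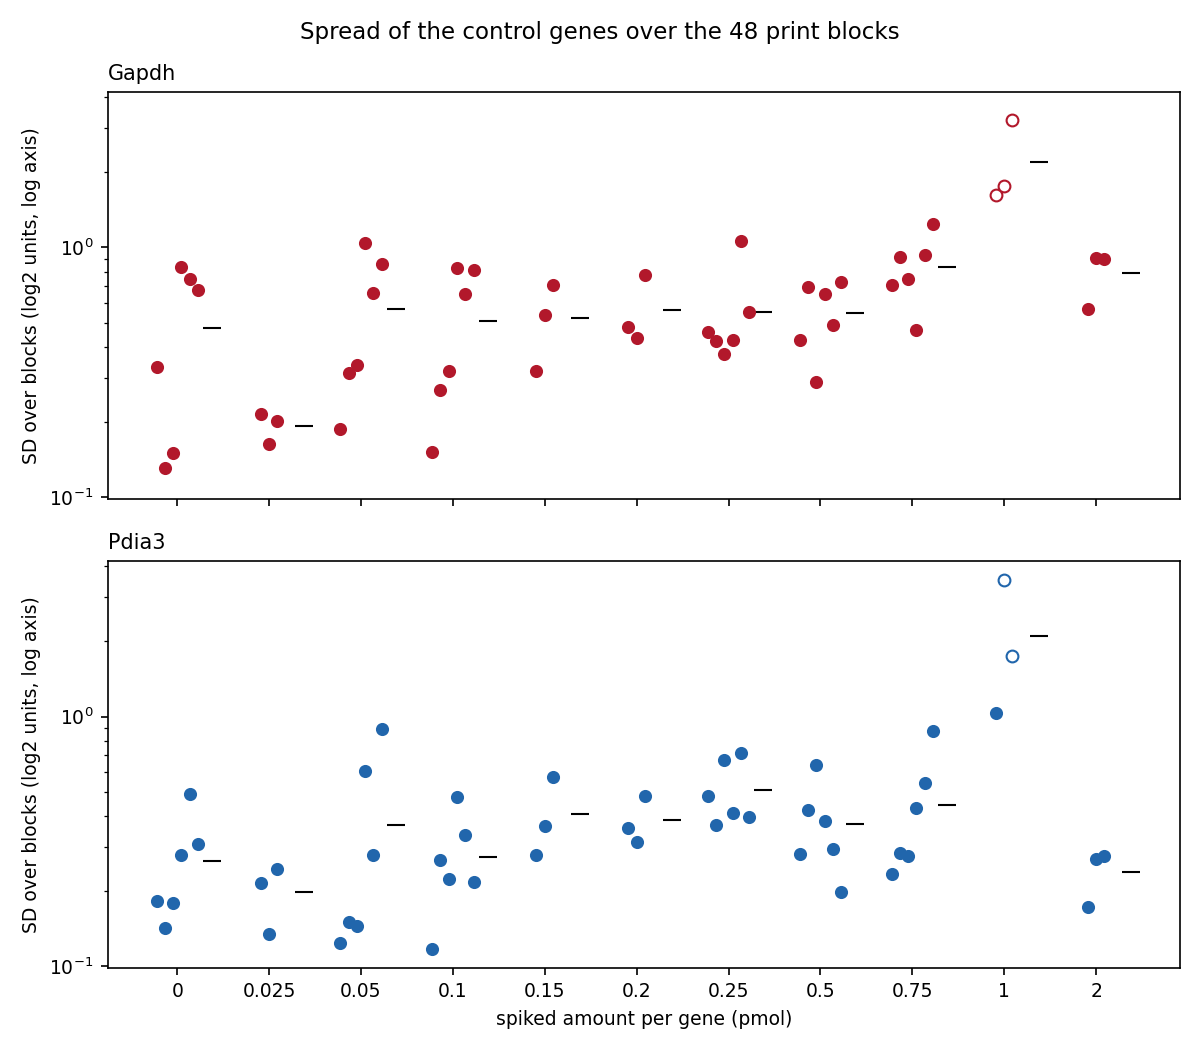
SD of the pair means over the 48 blocks, in log2 units on a log axis, for each array by spiked amount in pmol; open circles mark arrays with under 48 measured spots of that gene, and the black bar is the group mean. The 1 pmol arrays are the highest group for both genes (1.62 to 3.22 for Gapdh and 1.03 to 3.53 for Pdia3), and the 0.025 pmol arrays have the lowest mean for both.

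Averaged over the 48 arrays without 1 pmol, block means departed from the median block of their array by -0.23 (block 24) to 0.36 (block 1) for Gapdh and by -0.29 (block 2) to 0.25 (block 10) for Pdia3. The departures of Gapdh followed the numbering of the blocks in steps of 4, a pattern that was noticed in the values and was not tested. In blocks 1, 5, 9 and so on to 45, all 12 means were positive, from 0.12 to 0.36, with a mean of 0.23. In the other 3 series of 12 blocks, which start at blocks 2, 3 and 4, 11, 10 and 11 means were negative, with means of -0.11, -0.071 and -0.14.

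Pdia3 went the other way in that series. In the same 12 blocks all 12 of its means were negative, from -0.24 to -0.022, with a mean of -0.11, whereas the other 3 series averaged -0.034, 0.0012 and -0.023, with 10, 6 and 8 of 12 means negative. Over the 48 blocks the means of the 2 genes correlated with r = -0.47, a description over blocks that share slides. The non-control spots of these 12 blocks departed by -0.027 on average, and block medians of those spots correlated with the Gapdh and Pdia3 means with r = -0.090 and 0.062. Single arrays were mixed: in block 1, Gapdh was above the median block on 29 of 47 arrays and Pdia3 below it on 29 of 48. On single arrays without 1 pmol, r over blocks between the 2 genes had a median of 0.12 and ran from -0.68 to 0.87.

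**Figure D4:**
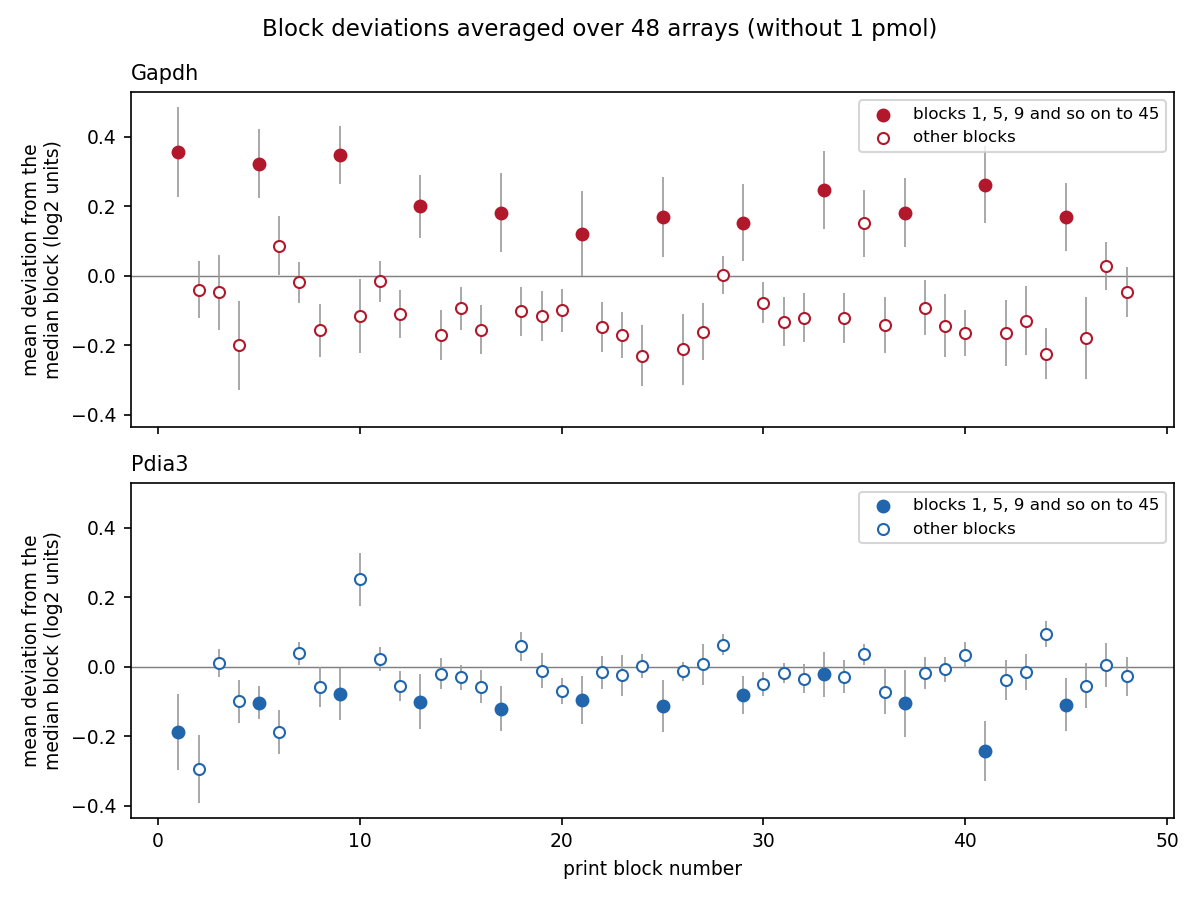
Mean departure of each print block from the median block of its array, in log2 units, for Gapdh (upper) and Pdia3 (lower) over the 48 arrays without 1 pmol; bars are the standard error over arrays, and filled circles mark blocks 1, 5, 9 and so on to 45. In these 12 blocks Gapdh is positive throughout (0.12 to 0.36) and Pdia3 negative throughout (-0.24 to -0.022).

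The 6 other Gapdh spots form 3 pairs in block 4 (spots 1057 and 1079, 1254 and 1276, and 1298 and 1320). They were set against the control spots on the 6 arrays with high Gapdh. There the control values, taken over all blocks, were 2.75 and 3.20 (0.15 pmol), 4.14 (0.2 pmol), 3.74 (0.25 pmol), and 3.24 and 1.94 (0.5 pmol). The control spots of block 4 alone gave 1.99, 3.05, 5.02, 3.73, 2.84 and 1.74, so part of a gap to the control value can lie between blocks. In the same order the first pair gave 2.05, 3.09, 4.26, 3.42, 2.87 and 1.78, and the last pair gave 2.03, 1.18, 4.09, 3.68, 1.85 and 1.22. Both pairs were thus positive on all 6 arrays, with the last pair well under the control value on replicate 3 at 0.15 and replicate 4 at 0.5 pmol. The middle pair was negative on all 6, with -2.66, -2.48, -2.49, -2.71, -3.73 and -3.99.

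Over the 48 arrays without 1 pmol the first pair had the sign of the control value on 29, the middle pair on 22 and the last pair on 35. The median absolute gaps to the control value were 0.385, 0.890 and 0.450, and the middle pair ranged from -6.80 to 0.96. With nothing spiked, the first pair gave 0.15, 0.49 and 0.82 in replicates 1 to 3 and 0.99, 1.34 and 0.89 in replicates 4 to 6, so it did not share the change of sign of the control spots. The last pair gave 1.31, 0.78 and 0.82, then -0.39, -1.27 and 0.42. A probe listed as Gapdh therefore did not always give the ratio of the control spots.

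**Figure D5:**
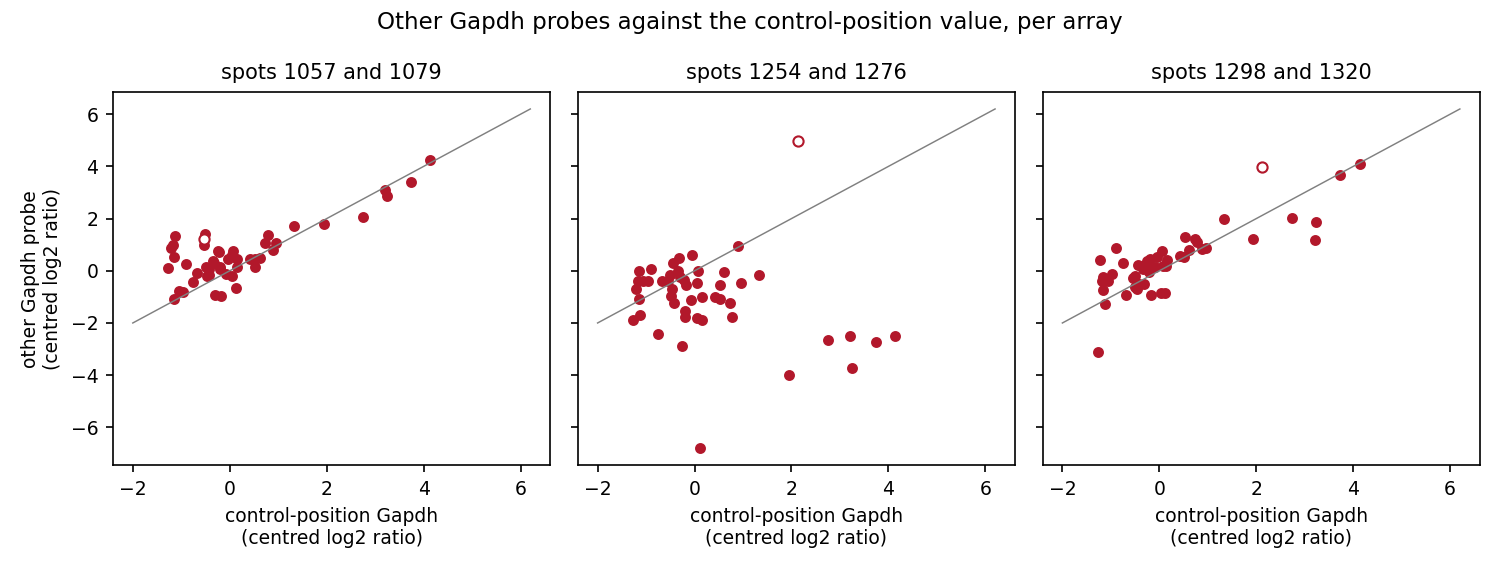
Centred log2 ratio of each of the 3 other Gapdh pairs (vertical) against the control-position value of Gapdh on the same array (horizontal); open circles are 1 pmol arrays and the grey line marks equal values. On the 6 arrays with high control Gapdh at 0.15 to 0.5 pmol the first and last pairs are positive (1.78 to 4.26 and 1.18 to 4.09), and the middle pair lies below 0.

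Among the 2409 features with 1 symbol that were measured on all 51 arrays, those most like Gapdh over the arrays were Ift52 (r = 0.59, and 0.65 without 1 pmol), Lsamp (0.58 and 0.65) and Ap4m1 (0.57 and 0.33). Those most like Pdia3 were Brd2 (0.67 and 0.70), Tuba4a (0.65 and 0.66) and Atp2a2 (0.63 and 0.63). Ift52 encodes a subunit of the intraflagellar transport machinery, Lsamp a neuronal adhesion protein and Ap4m1 a subunit of an adaptor complex for vesicle transport. Brd2 encodes a bromodomain protein that binds acetylated histones, Tuba4a an alpha-tubulin and Atp2a2 the calcium pump of the endoplasmic reticulum. Here r serves only to choose the features, since the Gapdh values fall into clusters and all values share arrays and centring.

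Other genes of the 2 pathways and of the cell line were read at 2 pmol against 0 pmol, beside the 15.6% of 7919 features that passed and a median difference of 0.043 over all of them. Of 26 listed glycolysis genes 5 were on the array outside the control positions, with 9 probes, of which 1 had a positive and 2 a negative difference that passed limma's test; their median difference was -0.20. The 3 were probes of Hk2, a hexokinase that starts glycolysis, with 3.79 in one and -3.11 in the other (adjusted p = 3.04e-07 and 2.77e-06), and of Pfkm, a phosphofructokinase, with -1.30 (adjusted p = 0.0143). The control Gapdh difference at 2 pmol was -0.81 ± 0.92 and did not pass (adjusted p = 0.601).

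Of 25 listed genes for disulfide isomerases, other folding factors and MHC class I peptide loading 7 were present with 1 probe each, and 0 passed at 2 pmol by limma. Their median was 0.17, and 4 had a p under 0.05 before adjustment. The count was 1 without replicate 3 or without replicate 5 of 0 pmol. These 4 were split in direction: Erp44, which retains folding enzymes, had 0.69, Ero1a, which reoxidises disulfide isomerases, had 0.65, and Tap1, a subunit of the peptide transporter, had 0.63. The fourth was Pdia6, a disulfide isomerase of the same family as Pdia3, with -0.74 ± 0.27 (adjusted p = 0.0551). Of 26 common reference genes 5 were present, of which Ppib, a cyclophilin of the endoplasmic reticulum, passed with 1.33 and Gnas, a G protein subunit, with -0.93 (limma, adjusted p = 0.000709 and 0.00395). Their median was -0.93, and the count was 1 without replicate 3 of 2 pmol.

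Of 18 listed hybridoma markers 1 was present, Pou2af1, a B-cell transcriptional coactivator, with -1.68 (limma, adjusted p = 0.0116); it did not pass without replicate 1 or without replicate 3 of 2 pmol. Of 20 markers of T cells, NK cells and myeloid cells 5 were present with 6 probes, of which 3 passed: Cd3e was positive with 2.02, and Tcra and Cd28 were negative with -6.54 and -0.68 (adjusted p = 1.11e-05, 6.10e-06 and 0.0360). The median over the 6 probes was -0.0019. No source used here names the spiked genes, and the part of spiking in their differences was not tested.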

How the data were processed

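Values are the deposited log2 ratios, with 1 value for each spot of an array; the authors do not name the log base, which was read from the values. The numerator channel, background subtraction, filters and normalisation are not given in the sources used here. The deposited array medians ran from -3.33 to 0.971, so each array was centred on the median of its non-control spots. Ratios of 16.61, log2 of 100000, form an upper limit (1074 values, 4 of Gapdh and 13 of Pdia3) and were treated as missing. Groups and replicate numbers come from the sample titles. The probes of the 22 control positions were left out of the features, which are means of a pair of spots.

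The 7920 features and the array values of Gapdh and Pdia3 were fitted with limma 3.58.1 in R 4.3.3 (files were read with version 1.17.8 of the data.table package), with 1 mean per amount over all 51 arrays and at least 2 measured arrays per group. P-values are two-sided and Benjamini-Hochberg adjusted over all features, with 0.05 as the threshold. The fit was tested on simulated data. Exact permutation tests, and 100000 permutations for larger groups, used scipy 1.17.1, numpy 2.4.6 and pandas 2.3.3 in Python 3.11.15, and matplotlib 3.10.9 drew the plots. Symbols were updated through Entrez identifiers with RefSeq names of assembly GRCm38.p6, whose coordinates are not used because the platform names no build.

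The members and gene lists were chosen with earlier results of these data known. Besides Gapdh and Pdia3, the text names the 3 features most correlated with each gene and up to 4 members of each list that passed at 2 pmol with the largest difference; Pdia6, Erp44, Ero1a and Tap1 were named after their values were seen. No 2 arrays shared more than 0.334% of their feature values, so none was a copy. Alternatives were other centring and scaling, the mean over spots, the upper limit kept, complete features, a replicate block, array sets, leaving out arrays, and, added after the data were seen, replicates 1 to 3 and 4 to 6 apart, differences from 0 and leaving out 1 pmol.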

Additional observations from a re-analysis of the deposited data

Results flagged for a closer look

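The SD of Gapdh over the print blocks was 1.06 on replicate 5 at 0.25 pmol, while the other 5 arrays of that amount had 0.375 to 0.549, a gap larger than Dixon's 95% critical value for 6 samples allows. Its Gapdh array value of -0.25 lay inside the range of its group, 87 of its 96 Gapdh spots were measured, and its Pdia3 SD of 0.717 was also the highest of the 6. It was 1 of 24 sets of values tested in this way, and chance alone marks about 1 in 20.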

How the results depend on the processing

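Away from leaving out single arrays, 339 of the recomputed values were counted as held, 8 passed newly, 9 no longer passed, 2 changed sign while passing and 10 counts of list probes moved. Here and below, a value that changed sign was also counted as held if neither fit passed. An example is Gapdh at 0.25 pmol, with -1.27 in replicates 1 to 3 and 0.69 in the main fit. Without centring, the 0 pmol means were -2.20 for Gapdh and -1.79 for Pdia3, both passing (limma, adjusted p = 1.58e-05 and 1.25e-05), Gapdh differed by 3.02 at 0.15 and 2.85 at 0.5 pmol (adjusted p = 0.0148 and 0.000160), and Pdia3 by 1.53 at 0.5 pmol (adjusted p = 0.00720); uncentred values carry the array median. Without centring the Pdia3 slope was -0.046, and with the array set as a term -0.088. The Gapdh difference at 1 pmol was 2.26 with blocks centred, 1.19 with arrays scaled, 1.86 in replicates 1 to 3 and 2.79 by the exact permutation test, none of which passed. In replicates 4 to 6, Pdia3 averaged 0.63 at 0 pmol, Gapdh differed by 2.65 at 0.25 and 2.94 at 0.5 pmol and Pdia3 by -1.09 at 0.5 pmol. Set against 0 in place of the 0 pmol arrays, Pdia3 at 0.025 pmol passed with 0.62 (limma, adjusted p = 0.0463). The share of all features passing was not counted for this fit or for the fit without centring. In the main fit 25.2% of features passed against 0 at 0 pmol. The correlation of Pdia3 block spread with amount was 0.28 with the interquartile range and 0.14 without 1 pmol, and Pdia3 minus Gapdh spread was -0.096 with the upper limit kept. At 2 pmol, the folding list had 3 calls without centring, 2 with blocks centred, 2 with arrays scaled, 1 over complete features, 2 in replicates 1 to 3 and 1 against 0. The reference list had 1 call and the hybridoma list 0 in replicates 1 to 3, the hybridoma list 0 without centring, and the markers of other cells 1 over complete features. In the main fit 15.6% of all features passed at 2 pmol. That share was not counted for these settings or for leaving out 1 array, so the changed counts are not results about the lists. The cause of these changes was not tested. Leaving out 1 array at a time, 536 values held and 13 did not (1 newly passed, 7 no longer passed and 5 counts moved): the Gapdh difference ran from 1.52 to 3.22 at 0.15 and from 1.05 to 4.32 at 1 pmol, the Pdia3 spread correlation from 0.26 to 0.34, and calls from 1 to 3 in the reference list, 0 to 1 in the hybridoma list and 0 to 1 in the folding list. The glycolysis list and the markers of other cells ran from 2 to 3, which was counted as held because it is within 1.5 times. With the replicate number as a block, the Gapdh difference at 1 pmol was 2.92 and the Pdia3 slope -0.12 (adjusted p = 0.0125 and 0.0102), and the block changed no call of either gene. Deviations of 210 same-numbered pairs of arrays correlated with a median of 0.0047, beside -0.00013 for 960 other pairs. These medians showed no general pairing by number. Of the same-numbered pairs 49 exceeded 0.1, and no such count was made for the others. At 0.05 and 0.1 pmol, replicates 1 to 3 fell in one array set and replicates 4 to 6 in another. The array set could not be fitted in differences from 0 pmol, since no spiked array shares a set with those arrays. The scanner intensities were not analysed here, so signal over background behind each ratio is unknown, and the few measured spots limit every value at 1 pmol.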
